A study of Mus musculus with 6 samples.

Results

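Collagens are the triple-helical proteins of the extracellular matrix, and the genes described here are the 42 genes for collagen chains among 18193 genes measured in the Thy1-positive and Thy1-negative cells of prepubertal mouse testis. A gene was taken as a collagen chain when its symbol had the form of Col, a number, the letter a and a number, and when it had a probe set assigned to it alone. Where a gene had several such probe sets, the brightest one, by its mean over the 6 arrays, was used. The 42 genes fell into 11 fibrillar chains, 8 chains of basement membranes and 23 other chains. They had 82 probe sets in all, 27 genes having several and 15 having 1.

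Each collagen molecule is made of 3 chains wound around each other, and chains that belong together are often encoded by neighbouring genes. Fibrillar collagens (types I, II, III, V, XI, XXIV and XXVII) form the fibrils of the interstitium, whereas type IV collagen forms the sheet-like network of basement membranes, to which types XV and XVIII are attached. In the testis, Sertoli cells and peritubular myoid cells together lay down the basement membrane around the seminiferous tubule, on which spermatogonia rest, and fibroblasts between the tubules make most of the fibrillar matrix.

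The cells came from whole testes and were separated on magnetic columns by Thy1, a cell surface glycoprotein that is used to enrich spermatogonial stem cells. The Thy1-negative fraction (arrays N1, N2 and N3) and the Thy1-positive fraction (arrays P1, P2 and P3) each had 3 arrays, from independent preparations of donor testes; whether arrays of the same number in both fractions share a preparation is not stated. No transgene, drug or mutation is named for either fraction, and the sources used here give no strain and no age beyond prepubertal. Either fraction is a mixture of cells, and a lower value in such bulk RNA can come from fewer cells of a type or from less RNA per cell, which cannot be told apart. Levels are on the log2(intensity + 1) scale, and a difference is the Thy1-positive mean less the Thy1-negative mean, with the SE of limma. Adjusted p-values come from limma over all 18193 genes, and n is 3 arrays in each fraction.

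Median intensities of the 6 arrays ran from 15.7 to 17.5. Thy1 itself was at 6.05, 6.52 and 6.05 in the Thy1-positive and at 2.35, 2.35 and 2.74 in the Thy1-negative samples, so every array followed its label. One array of each fraction lay nearer to the other fraction in markers of Sertoli cells. The mean of 9 Sertoli cell markers was 7.90 on P2 against 6.03 and 6.27 on P1 and P3, and 10.72 on N2 beside 11.46 and 11.25 on N1 and N3. Collagen results are also given without these arrays where that changes them. Of all genes, the Thy1-positive fraction was higher for 18.5% and lower for 14.4%, by a threshold of 0.05 on the adjusted p. The higher genes made up 56.2% of all calls, a share of 79.7% under median centring of the arrays and of 29.0% under centring by housekeeping genes.

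More collagen chains were lower than higher. Of the 42, 9 were lower in Thy1-positive cells (21.4%, against 14.4% of all genes), 1 was higher (2.38%, against 18.5%) and 32 did not pass. With each array centred on its median instead, 11 were lower and 9 higher. The added higher genes were dim in both fractions except Col13a1. Under that centring, 10436 of all genes were called higher and 2659 lower, in place of 3368 and 2628. Basement membrane chains made up 6 of the 9 lower genes, the fibrillar chains 1 and the other chains 2. The median difference was -1.68 for the basement membrane chains, -0.02 for the fibrillar chains and -0.05 for the other chains, beside 0.01 for all genes. Among the 30 chains whose mean was above the array median, the median difference was -0.69, and it was 0.14 for all genes above the median. By class it was -1.68 for the 8 basement membrane, -0.34 for the 8 fibrillar and -0.47 for the 14 other chains above the median. The remaining 12 chains were below the array median in both fractions, and none of them passed the test. Only 3 of these, Col10a1, Col11a2 and Col19a1, were at background level in both fractions. For the others, a test that was not passed with 3 arrays per fraction does not show that their signal was background. By the arrays themselves, the fractions did not overlap for 12 chains that were lower in Thy1-positive cells, while 19.8% of all genes did so. Likewise 4 chains were higher without overlap, where 31.6% of all genes were.

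**Figure D1:**
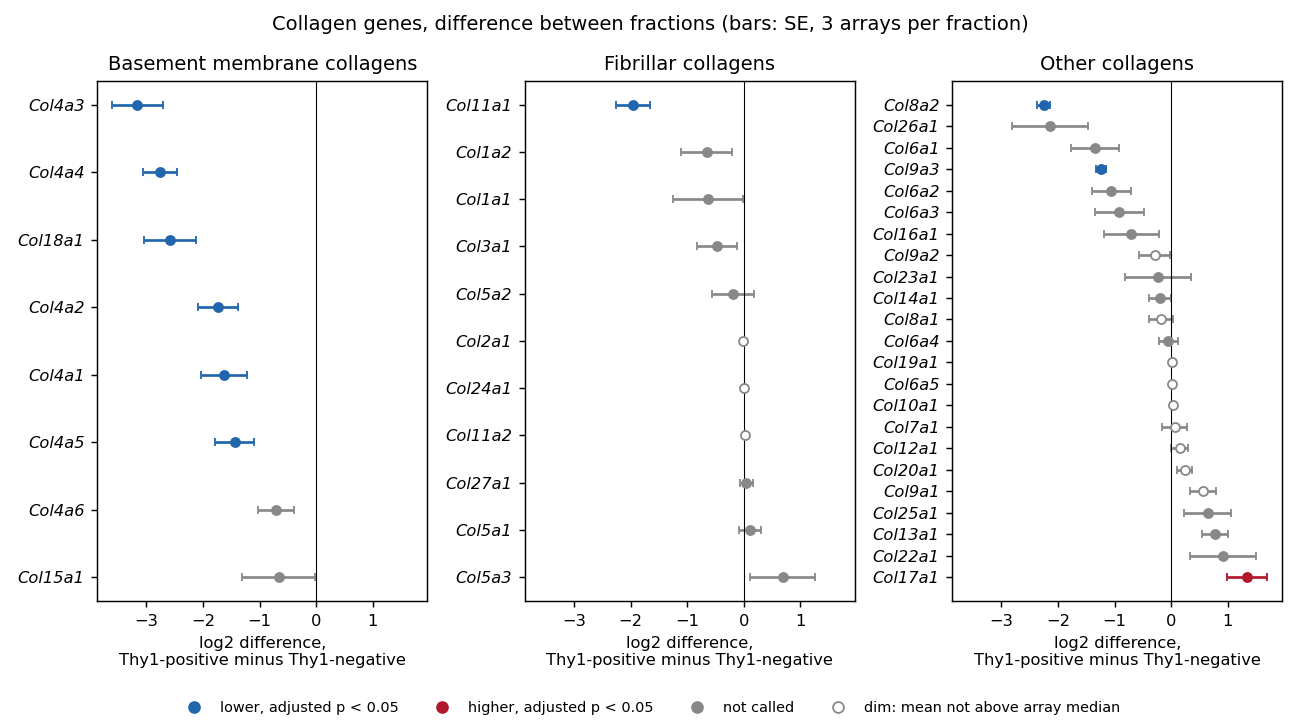
Differences of the 42 collagen genes between fractions on the log2 scale (horizontal axis), by class, with bars for the SE of limma over 3 arrays per fraction. Colour marks an adjusted p below 0.05 and open circles mark genes whose mean was not above the array median. Blue points on the left are the 9 lower genes, 6 of them in the basement membrane panel, and the red point is Col17a1.

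Type IV collagen is built from 6 chains whose genes lie in 3 pairs, each pair next to each other on its chromosome: Col4a1 with Col4a2 on chromosome 8, Col4a3 with Col4a4 on chromosome 1, and Col4a5 with Col4a6 on chromosome X. In RefSeq (GRCm38.p6), Col4a1 on the minus strand and Col4a2 on the plus strand point away from each other and overlap by 22 bases at their annotated starts, so the bases before the start of one lie inside the other. Sequences upstream of the starts are shown for the X-linked pair, as partner chains that did not give the same call, and for Col18a1. For these genes up to 250 bases before the annotated start are given, 5′ to 3′ on the strand of the gene and only as far as they lie outside the gene's own annotated span. In these, capitals mark a CCAAT box (the letters CCAAT) or a GC box (the letters GGGCGG), each on either strand.
Col4a5, chrX:141475169-141475369, plus strand: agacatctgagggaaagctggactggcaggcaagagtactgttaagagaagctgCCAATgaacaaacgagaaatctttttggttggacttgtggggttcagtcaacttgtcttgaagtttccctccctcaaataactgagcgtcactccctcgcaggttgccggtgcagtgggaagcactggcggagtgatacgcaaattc
Col4a6, chrX:141474096-141474326, minus strand: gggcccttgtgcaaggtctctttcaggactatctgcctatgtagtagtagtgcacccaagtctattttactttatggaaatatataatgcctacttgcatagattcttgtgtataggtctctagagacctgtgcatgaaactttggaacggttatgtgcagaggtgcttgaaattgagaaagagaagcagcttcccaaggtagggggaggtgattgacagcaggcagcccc
Col18a1, chr10:77166531-77166780, minus strand: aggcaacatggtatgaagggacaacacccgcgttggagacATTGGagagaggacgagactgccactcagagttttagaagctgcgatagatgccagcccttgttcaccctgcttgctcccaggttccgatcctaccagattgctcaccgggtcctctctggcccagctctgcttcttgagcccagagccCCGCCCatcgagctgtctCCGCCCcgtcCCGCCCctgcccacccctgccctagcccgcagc
The printed bases of Col4a5 and Col4a6 hold no GC box, but both genes have one in the part of their windows that is not printed, and Col18a1 has 3 in the bases shown. The array probes do not show which start was used.

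The most widespread type IV molecule contains the chains α1 and α2. Col4a1 measured 13.97, 13.20 and 13.73 on N1, N2 and N3 and 11.32, 12.59 and 12.09 on P1, P2 and P3. Col4a2 measured 12.00, 11.41 and 11.71 in Thy1-negative and 9.49, 10.62 and 9.79 in Thy1-positive samples. For both genes the fractions did not overlap, and P2 was the Thy1-positive array nearest to the Thy1-negative ones. In Thy1-positive cells Col4a1 was 3.10-fold lower (-1.63, SE 0.40, adjusted p = 0.0381) and Col4a2 3.33-fold lower (-1.74, SE 0.35, adjusted p = 0.0227). A second probe set of Col4a1 gave -1.63 as well, but when p-values were adjusted over all probe sets neither passed (adjusted p = 0.05001 for the one used and 0.0816 for the other).

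The chains α3, α4 and α5 form the type IV network of specialised basement membranes such as that of the kidney glomerulus, and are also made in the seminiferous tubule. Of all 42 collagens, Col4a3 and Col4a4 had the lowest differences. Col4a3 measured 9.16, 9.65 and 9.27 on the Thy1-negative and 5.52, 7.07 and 6.01 on the Thy1-positive arrays. Col4a4 measured 11.93, 12.14 and 12.01 against 8.73, 9.84 and 9.20. Neither gene overlapped between fractions. Col4a3 was 8.95-fold lower (-3.16, SE 0.45, adjusted p = 0.00958) and Col4a4 6.81-fold lower (-2.77, SE 0.30, adjusted p = 0.00571). Other probe sets of these genes gave -3.18 for Col4a3 and -2.40 and -2.33 for Col4a4, and all of them passed over all probe sets.

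Of the X-linked pair, Col4a5 passed the test and Col4a6 did not. Col4a5 measured 10.71, 10.30 and 10.63 in Thy1-negative and 8.50, 9.72 and 9.10 in Thy1-positive samples, with no overlap. It was 2.72-fold lower (-1.44, SE 0.35, adjusted p = 0.0361), and its other probe set gave -1.26 without passing over all probe sets. Col4a6 was dimmer, with 5.71, 5.52 and 5.44 against 4.37, 5.48 and 4.69. There P2 reached the Thy1-negative range, and the difference of -0.71 (SE 0.32, adjusted p = 0.163, 95% interval -1.54 to 0.12) did not pass. Without P2 the difference of Col4a6 was -1.02 and passed (adjusted p = 0.0191).

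Col18a1 and Col15a1 encode related collagens that carry glycan chains and whose C-terminal fragments, endostatin in the case of type XVIII, are released by proteolysis. Col18a1 measured 11.51, 10.87 and 11.07 on the Thy1-negative arrays and 8.12, 9.48 and 8.09 on the Thy1-positive arrays. P2 was again the highest of its fraction, yet it lay below every Thy1-negative array. The gene was 6.01-fold lower (-2.59, SE 0.46, adjusted p = 0.0164), and a second probe set gave -3.10. Col15a1 measured 8.08, 6.38 and 7.49 against 5.94, 7.58 and 6.44, so the fractions overlapped widely. Its difference of -0.67 (SE 0.64, adjusted p = 0.511) did not pass, and the 95% interval from -2.36 to 1.03 leaves room for a decrease as large as that of Col4a1. The value was -0.28 without N1 and -1.13 without N2 or P2. Whether Col18a1 and Col15a1 differed from each other was not tested.

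**Figure D2:**
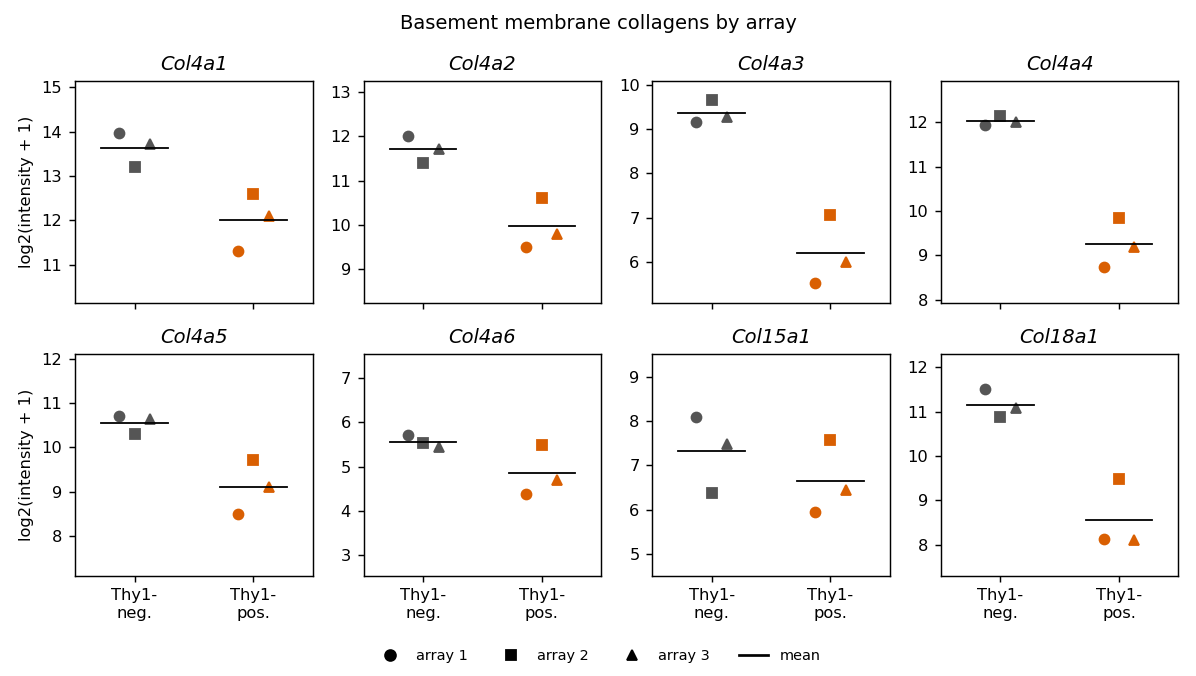
The 8 basement membrane collagens on each array, as log2(intensity + 1) on the vertical axis, with arrays 1, 2 and 3 of a fraction as circle, square and triangle and the mean as a line. Every panel spans the same number of log2 units. For Col4a1 to Col4a5 and Col18a1 the fractions do not overlap, and the square of the Thy1-positive fraction (P2) is the highest of its fraction in all 8 panels.

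Not all 6 basement membrane calls held when 1 array was left out. Without N1, N3, P1 or P3, only 5 of the 9 lower collagens passed, and Col4a1, Col4a2, Col4a5 and Col18a1 were those lost. All genes called lower then numbered 1580, 1302, 1629 and 1163 in this order, in place of 2628. In these 4 fits the difference of Col4a1 lay between -1.68 and -1.29, that of Col4a2 between -1.73 and -1.50, that of Col4a5 between -1.44 and -1.14 and that of Col18a1 between -2.62 and -2.35. Their adjusted p then ran from 0.0575 to 0.123. Col4a5 was also lost without N2 (-1.57, adjusted p = 0.0556). Without P2, 11 collagens were lower, with Col4a6 and Col6a1 (-1.72) added, while all genes called lower numbered 2405. Col4a3, Col4a4, Col8a2, Col9a3 and Col11a1 passed in each of these fits.

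Markers of the cells that make the tubule wall were lower on the same arrays as the 5 called type IV chains. All 9 Sertoli cell markers (Sox9, Amh, Fshr, Wt1, Dhh, Clu, Cldn11, Inha and Gata4) were lower, with list means of 10.72 to 11.46 on the Thy1-negative and 6.03 to 7.90 on the Thy1-positive arrays. Amh and Fshr were at background level in Thy1-positive cells, with means below the 25th percentile of the arrays. Of 7 peritubular myoid markers 5 were lower, with list means of 8.21 to 8.92 against 6.30 to 6.69. The median difference was -4.23 for the Sertoli cell list and -2.29 for the myoid list. The mean of the 6 type IV chains was 10.58, 10.37 and 10.46 on N1, N2 and N3 and 7.99, 9.22 and 8.48 on P1, P2 and P3, so that P2 was highest among the Thy1-positive arrays for the type IV chains and for both marker lists. Among the Thy1-negative arrays N2 was lowest for the type IV chains (10.37) and the Sertoli cell list (10.72), but highest for the myoid list (8.92). The part of these cell types in the collagen result was not tested. Endothelium is another source of basement membrane. Of its 6 markers only Cdh5 had a mean over all arrays above the array median, and Tie1 was at background level in both fractions. Kdr measured 4.88, 3.32 and 5.02 on N1, N2 and N3 and was at background level in Thy1-positive cells, so it was at least 3.31-fold lower (adjusted p = 0.0438). The other 5 markers did not pass, and the part of endothelium in the collagen result was not tested either.

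Of the 11 fibrillar collagens 1 was lower and none higher. Sequences upstream of the start are shown for Col1a2 and Col3a1, as chains of the 2 main fibril types with a window in RefSeq. Capitals mark the CCAAT and GC boxes as above, or a TATA box, searched as the letters TATAAA on either strand.
Col1a2, chr6:4505368-4505617, plus strand: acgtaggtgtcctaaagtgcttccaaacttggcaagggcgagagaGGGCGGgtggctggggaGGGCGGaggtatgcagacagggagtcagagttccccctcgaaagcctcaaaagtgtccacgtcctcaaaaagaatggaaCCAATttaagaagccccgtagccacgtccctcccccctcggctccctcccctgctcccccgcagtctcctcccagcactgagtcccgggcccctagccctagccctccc
Col3a1, chr1:45311288-45311537, plus strand: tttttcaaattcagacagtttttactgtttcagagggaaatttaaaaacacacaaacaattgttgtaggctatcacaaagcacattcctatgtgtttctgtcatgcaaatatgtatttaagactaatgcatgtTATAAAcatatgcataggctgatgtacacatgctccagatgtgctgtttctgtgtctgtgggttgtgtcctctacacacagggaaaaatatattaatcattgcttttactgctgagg
Col1a2 carried a pair of GC boxes and a CCAAT box in this window, and Col3a1 a TATA box with neither of the others.

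Type I collagen, the main fibril of connective tissue, joins 2 chains of α1 with 1 of α2. Col1a1 measured 11.59, 11.39 and 11.64 in Thy1-negative and 9.80, 12.07 and 10.86 in Thy1-positive samples. Col1a2 measured 13.44, 12.98 and 13.27 against 11.78, 13.39 and 12.56. In both genes P2 stood above at least 1 Thy1-negative array while P1 was far below them. The differences of -0.63 (SE 0.61, adjusted p = 0.512, 95% interval -2.24 to 0.98) and -0.65 (SE 0.45, adjusted p = 0.353, 95% interval -1.83 to 0.53) did not pass. They depended on single arrays: without P1 they were -0.076 and -0.26, and without P2 they were -1.21 and -1.06, again with no call.

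Type III collagen forms fibrils together with type I. Col3a1 measured 13.84, 13.50 and 13.76 in Thy1-negative and 12.60, 13.87 and 13.19 in Thy1-positive samples, where P2 was above all 3 Thy1-negative arrays. Its difference of -0.48 (SE 0.35, adjusted p = 0.388) did not pass, and was -0.17 without P1 and -0.80 without P2. Type V collagen starts fibrils and sets their width. Col5a1 measured 9.82, 9.76 and 9.79 against 9.52, 10.26 and 9.91, and Col5a2 measured 9.97, 9.13 and 9.87 against 8.94, 10.00 and 9.46. These were small differences with no settled direction: 0.11 (SE 0.20, adjusted p = 0.774) for Col5a1, which turned to -0.051 with housekeeping centring and to -0.074 without P2, and -0.19 (SE 0.38, adjusted p = 0.792) for Col5a2, which turned to 0.073 without P1. Col5a3, with 5.84, 5.74 and 5.86 against 5.48, 7.61 and 6.40, differed by 0.69 (SE 0.57, adjusted p = 0.449), or by 0.13 without P2.

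Col11a1 was the exception among fibrillar chains. It encodes a minor chain that is built into the core of cartilage fibrils and is found in other tissues as well. It measured 5.75, 5.23 and 6.05 on the Thy1-negative arrays and 3.42, 3.60 and 4.14 on the Thy1-positive arrays, where it was below the array median. It was 3.89-fold lower (-1.96, SE 0.30, adjusted p = 0.0116), and a second probe set gave -1.47 and passed too. A pseudocount of 16 reduced the difference to -1.23, still with a call. Of the other fibrillar chains, Col27a1 differed by 0.05, and the cartilage and bone chains Col2a1, Col11a2 and Col24a1 were dim in both fractions with differences from -0.02 to 0.02.

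**Figure D3:**
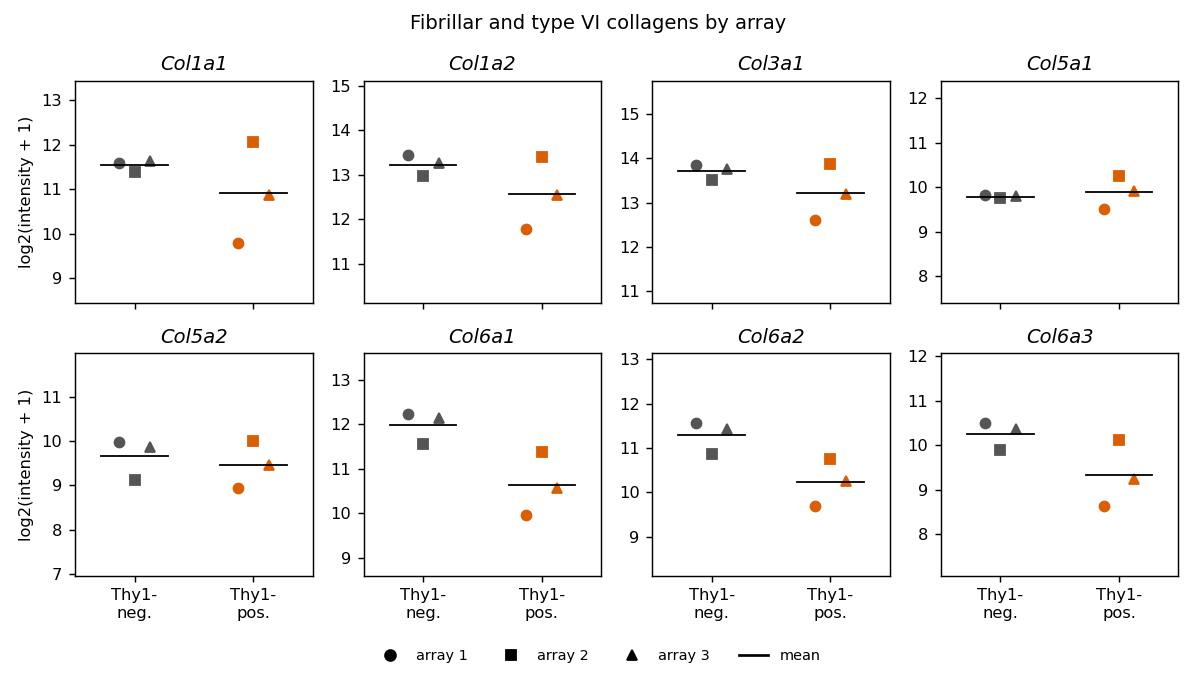
Chains of collagen types I, III, V and VI on each array, as log2(intensity + 1) on the vertical axis, with arrays 1, 2 and 3 as circle, square and triangle and the mean as a line. In Col1a1, Col1a2, Col3a1, Col5a1 and Col5a2 the Thy1-positive array 2 lies within or above the Thy1-negative values, and in Col6a1 and Col6a2 it lies just below them.

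Interstitial fibroblasts are the main cells of the fibrillar matrix. Of 7 of their markers 1 was lower (Tcf21, -1.24, adjusted p = 0.0387) and none was higher, and the shares of this list (14.3% lower) and the fibrillar chains (9.09% lower) stood beside 14.4% of all genes. The fibroblast markers had list means of 8.30 to 8.90 on the Thy1-negative and 8.08 to 9.20 on the Thy1-positive arrays, and P2 was the highest of its fraction for 6 of the 6 markers above the array median. The mean of the 8 fibrillar chains above the array median was 8.21, 9.39 and 8.88 in Thy1-positive and 9.32, 8.98 and 9.32 in Thy1-negative samples. Whether fibroblast RNA has a part in these values was not tested.

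Among the other collagens, the 3 main chains of type VI gave negative differences that did not pass. The beaded filaments of this type link basement membranes to the matrix around them, and its main form joins the chains of Col6a1, Col6a2 and Col6a3. Col6a1 measured 12.24, 11.56 and 12.13 on the Thy1-negative against 9.95, 11.38 and 10.56 on the Thy1-positive arrays. Col6a2 measured 11.57, 10.87 and 11.44 against 9.69, 10.75 and 10.25, and Col6a3 measured 10.50, 9.90 and 10.36 against 8.63, 10.13 and 9.25. P2 lay just below N2 in the first pair of genes and above it in Col6a3. The differences were -1.35 (SE 0.43, adjusted p = 0.0751), -1.06 (SE 0.35, adjusted p = 0.0798) and -0.92 (SE 0.43, adjusted p = 0.185), and none passed. Col6a1 did pass with median centring (adjusted p = 0.0496), housekeeping centring (0.0454), probe sets above the median alone (0.0223), an intensity trend (0.0484) and without P2 (0.0347). Col6a2 passed with housekeeping centring (adjusted p = 0.0454) and with probe sets above the median alone (0.0261). With both arrays numbered 2 left out, an alternative chosen after seeing the data, all 3 passed, at -1.93, -1.53 and -1.49. The related chains Col6a4 and Col6a5 differed by -0.05 and 0.01, and Col6a5 was dim.

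Of the 23 other collagens 2 were lower (8.70%, against 14.4% of all genes) and 1 was higher (4.35%, against 18.5%), so both shares were below those of all genes. Col8a2, a chain of the network-forming type VIII collagen known from the cornea and vessel walls, measured 5.37, 5.54 and 5.65 against 3.16, 3.44 and 3.19. It was 4.78-fold lower (-2.26, SE 0.11, adjusted p = 0.000949). Col9a3, a chain of the fibril-associated type IX collagen of cartilage, measured 5.35, 5.14 and 5.41 against 4.04, 4.13 and 4.01 and was 2.37-fold lower (-1.24, SE 0.08, adjusted p = 0.00215). Both were below the array median in Thy1-positive cells, and a pseudocount of 16 reduced the differences to -1.31 and -0.78, still with a call. A second probe set of Col9a3 gave -1.38, and a further one, dim and marked by Affymetrix as able to bind other transcripts, gave 0.0055.

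Col17a1, a transmembrane collagen that anchors epithelial cells to the basement membrane, was the only collagen called higher. It measured 4.50, 4.49 and 4.46 in Thy1-negative and 5.11, 6.40 and 5.98 in Thy1-positive samples, and the fractions did not overlap. The difference was 1.35 (SE 0.35, adjusted p = 0.0451), or 2.54-fold. It passed narrowly: with p-values adjusted over all probe sets it did not (adjusted p = 0.0589), nor without N1, N2, N3, P2 or P3, where the difference lay between 1.06 and 1.36. Col13a1, another transmembrane collagen, measured 7.85, 7.08 and 7.75 against 8.38, 8.38 and 8.26 and also did not overlap, but its difference of 0.78 (SE 0.23, adjusted p = 0.0594) missed the threshold. Without N2 it passed at 0.54, as did Col22a1 at 1.47, a transcript of tissue junctions whose difference with all arrays was 0.91 (SE 0.58, adjusted p = 0.316).

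Col26a1, a chain known from testis and ovary, gave one of the widest spreads. It measured 7.69, 5.86 and 7.12 on N1, N2 and N3 and 3.84, 5.46 and 4.95 on P1, P2 and P3. The fractions did not overlap, but the difference of -2.14 (SE 0.67, adjusted p = 0.0709, 95% interval -3.90 to -0.38) did not pass. Without N2 it was -2.65 and passed (adjusted p = 0.0366). Other chains above the array median differed by -0.71 (Col16a1), -0.23 (Col23a1), -0.19 (Col14a1) and 0.65 (Col25a1), with no call. The 9 dim chains of this class were Col6a5, Col7a1, Col8a1, Col9a1, Col9a2, Col10a1, Col12a1, Col19a1 and Col20a1, and their differences ran from -0.29 to 0.56.

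Partner chains of 1 molecule were compared within each array, as the log2 value of one chain minus that of the other, in 13 pairs. With 3 arrays against 3, a 2-sided exact permutation test cannot give p below 0.10, so no pair could pass. Of the 13 pairs, 9 reached that smallest value (adjusted p = 0.144), so that the test does not set them apart. Between fractions, Col1a1 less Col1a2 differed by 0.02 (exact permutation p = 1) and Col4a1 less Col4a2 by 0.10 (exact permutation p = 0.60). Col4a3 less Col4a4 differed by -0.39, Col4a5 less Col4a6 by -0.73 and Col6a1 less Col6a3 by -0.43, each with the smallest exact permutation p possible, 0.10. The widest gaps were in pairs of which 1 chain was dim in both fractions, Col8a1 against Col8a2 (2.07) and Col11a1 against Col11a2 (-1.99). Col11a2 was at background level in both fractions, whereas Col8a1 was dim but not at background level. The part of low signal in these gaps was not tested.

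Array P2 stood out in most collagens and N2 in many. P2 was the highest Thy1-positive array in 26 of the 30 collagens above the array median (86.7%, against 46.5% of all genes above it), including all 8 basement membrane chains. N2 was the lowest Thy1-negative array in 22 of the 30 (73.3%, against 41.1%), with 8 of 8 fibrillar, 5 of 8 basement membrane and 9 of 14 other chains. In Col4a3 and Col4a4, by contrast, N2 was the highest Thy1-negative array. The Sertoli cell markers showed the same order, with P2 highest in 8 of 9 and N2 lowest in 8 of 9. Macrophage markers, of which 10 of 10 were higher in Thy1-positive cells (list means 3.44 to 3.55 against 9.49 to 9.93), also had P2 highest in 8 of 10 and N2 lowest in 6 of 10. Of the markers with N2 lowest, however, Cd68, C1qa, C1qc and Ptprc were at background level in Thy1-negative cells. Aif1 was nearly flat there, at 3.29, 3.27 and 3.29. The place of N2 in the macrophage list therefore says little. Fibroblast markers had P2 highest and N2 lowest in 6 of the 6 above the median. This order was not seen in full in the lists of spermatogonia, germ cells and Leydig cells. Of the undifferentiated spermatogonia markers, 8 of 8 were higher, and P2 was the highest array in 1 of these 8. The germ cell markers, with 2 of 6 higher, had list means of 8.63, 10.07 and 9.04 on N1, N2 and N3 beside 10.68, 10.60 and 10.66 on P1, P2 and P3. Leydig cell markers, with 2 of 4 lower, were lowest on N2 (9.54) and on P2 (8.58) within their fractions. With both arrays numbered 2 left out, the lower collagens rose from 9 to 14, and all genes called lower rose from 2628 to 3116. The part of these cell types in the order of the arrays was not tested.

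**Figure D4:**
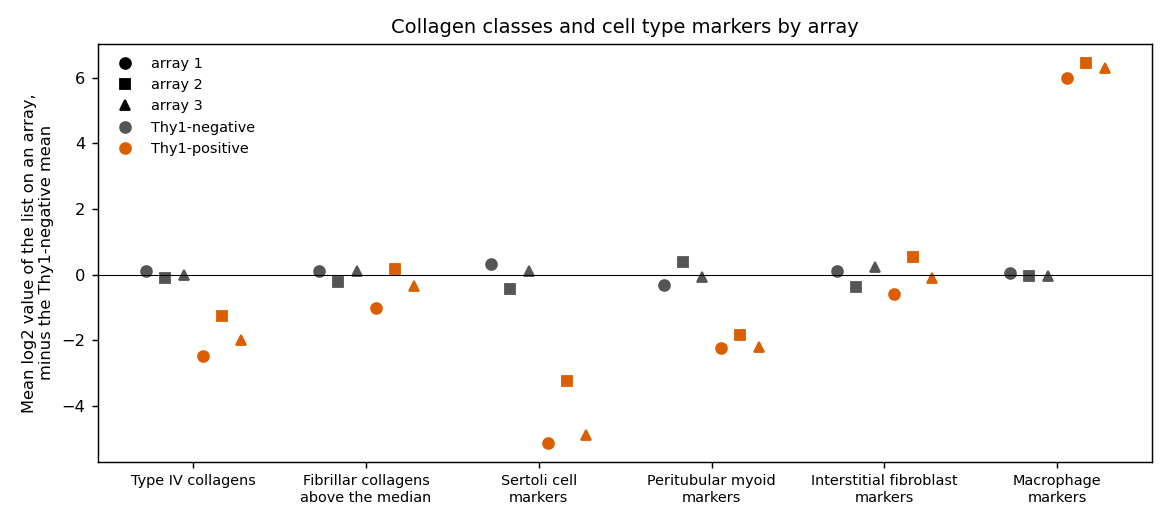
Mean log2 value of 2 collagen groups and 4 marker lists on each array, as the difference from the Thy1-negative mean of the same list (vertical axis, log2 units), with arrays 1, 2 and 3 as circle, square and triangle. In Thy1-positive samples the square (P2) is above the other arrays for the type IV and fibrillar chains and for the Sertoli, myoid and fibroblast markers, and all 3 macrophage points lie about 6 units above the Thy1-negative ones.

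Genes that make, assemble and recognise collagen were taken from 6 lists with 46 measured members; Fkbp10, Adamts2, Adamts14, Loxl2 and Itga11 were not analysed here. Of the 46, 16 were lower (34.8%, against 14.4% of all genes) and 3 higher (6.52%, against 18.5%), with a median difference of -0.14. Among the 33 above the array median, the median was -0.71. The number lower depended on the arrays as the collagens did, with 8 without N1 or P1, 5 without N3 and 4 without P3. All genes called lower then numbered 1580 without N1, 1629 without P1, 1302 without N3 and 1163 without P3, in place of 2628. The 3 higher pathway genes became 1 without N1 or N3 and 5 without N2. All genes called higher then numbered 1909, 1473 and 4273 in this order, in place of 3368.

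Inside the cell, collagen chains are hydroxylated on proline and lysine, glycosylated and folded with the help of dedicated chaperones. Of 13 genes for hydroxylation and glycosylation 3 were lower (23.1%, against 14.4% of all genes). Among them were Colgalt1, which adds galactose to hydroxylysine (-1.10, SE 0.17, adjusted p = 0.0115), and P4ha1, a catalytic subunit of prolyl 4-hydroxylase (-0.71, SE 0.15, adjusted p = 0.0243). P4hb, the other subunit of that enzyme and at the same time a general protein disulfide isomerase, was higher by 0.45 (SE 0.10, adjusted p = 0.0321). P4ha1 lost its call with the mean of its probe sets (-0.41) and without N1, N3, P1 or P3 (-0.75 to -0.60), and P4hb with housekeeping centring (0.29) and without N1, N3, P2 or P3 (0.37 to 0.47). Colgalt1 lost it without P3 (-1.12). Of 6 genes for folding and export 3 were lower (50%, against the same 14.4%) and none higher. Serpinh1 encodes HSP47, a chaperone specific to collagen, and measured 12.35, 11.52 and 12.24 against 10.01, 11.07 and 10.49. It was lower by -1.52 (SE 0.37, adjusted p = 0.0376), with no overlap and with P2 and N2 nearest to each other. Fkbp14, a prolyl isomerase of the endoplasmic reticulum, was lower by -1.72 (SE 0.33, adjusted p = 0.0199). Both lost their call without N1, N3, P1 or P3, and the mean of the probe sets of Fkbp14 gave -0.85 with a call.

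After secretion, propeptides are cut off and the chains are cross-linked. Of 6 genes for propeptide processing 2 were lower (33.3%, against 14.4% of all genes). Pcolce, which enhances the cutting of C-propeptides, measured 12.68, 12.02 and 12.72 against 10.01, 10.52 and 10.25, a difference of -2.21 (SE 0.25, adjusted p = 0.00619) that passed without each array in turn. Bmp1, the protease it enhances, was lower by -1.77 (SE 0.47, adjusted p = 0.0475) and kept its call among the fits without 1 array only when P2 was the one left out. The mean of its probe sets gave -0.86 and no call (adjusted p = 0.129). Of 5 cross-linking genes 2 were lower (40%, against the same 14.4%). These were Lox, the lysyl oxidase of fibrils (-2.06, SE 0.31, adjusted p = 0.0116), and Pxdn, the peroxidasin that makes the sulfilimine cross-links of type IV collagen (-1.14, SE 0.25, adjusted p = 0.0295). Lox lost its call without N3 or P3 and was -1.31 with the mean of its probe sets, and Pxdn lost it without any of N1, N3, P1, P2 or P3.

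Proteins that bind fibrils were lower where they passed, and receptors were split. Of 7 fibril partners 4 were lower (57.1%, against 14.4% of all genes) and none higher. Fmod, a small proteoglycan of fibrils, measured 7.24, 7.56 and 7.78 against 3.41, 5.20 and 4.69 and was lower by -3.09 (SE 0.51, adjusted p = 0.0141), a call lost without N3 (-2.97) or P3 (-3.22). The probe set used for Fmod is marked by Affymetrix as able to bind other transcripts. The call held with marked probe sets left out, and the mean of its 6 probe sets gave -1.09. Tnxb, a tenascin of connective tissue, was at least 3.31-fold lower (adjusted p = 0.000107), from 4.43, 4.41 and 4.38 to background level in Thy1-positive cells. The proteoglycans Dcn and Lum, which are also in the fibroblast list, differed by 0.31 and 0.87 with no call. Fn1 was higher without overlap, by 0.41 (SE 0.14, adjusted p = 0.0841), and missed the threshold, but it passed as higher with the mean of its probe sets. Of 9 receptors 2 were lower and 2 higher (22.2% each, against 14.4% and 18.5% of all genes). The receptor tyrosine kinases Ddr1 (-1.13, SE 0.13, adjusted p = 0.00635) and Ddr2 (-1.03, SE 0.24, adjusted p = 0.0339) were lower, the second not without N1, N3, P1 or P3. The probe set used for Ddr1 carries the same mark as that of Fmod, and the call held with marked probe sets left out. The mean of the probe sets of Ddr1 gave -0.58, still with a call.

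Itga1, the integrin subunit that binds type IV collagen together with β1, measured 3.89, 4.09 and 4.55 on the Thy1-negative and 6.42, 6.42 and 6.81 on the Thy1-positive arrays. It was 2.37 higher on the log2 scale (SE 0.22, adjusted p = 0.00417), a call that held without each array in turn and at 1.20 with the mean of its probe sets. Itgb1, the β1 subunit, differed by -0.04 (adjusted p = 0.863). Lair1, an inhibitory collagen receptor of leukocytes, measured 2.91, 2.87 and 2.91 against 4.03, 4.55 and 3.59 and was higher by 1.16 (SE 0.26, adjusted p = 0.0293), a call lost without N1, N2, N3 or P1 and, at 0.51, with a pseudocount of 16. The mean of its probe sets gave 0.48. The macrophage markers above rose on the same arrays, as did 3 of 5 T lymphocyte markers (list means 2.95 to 3.15 against 5.29 to 5.36), and the part of such cells in the values of Itga1 and Lair1 was not tested.

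**Figure D5:**
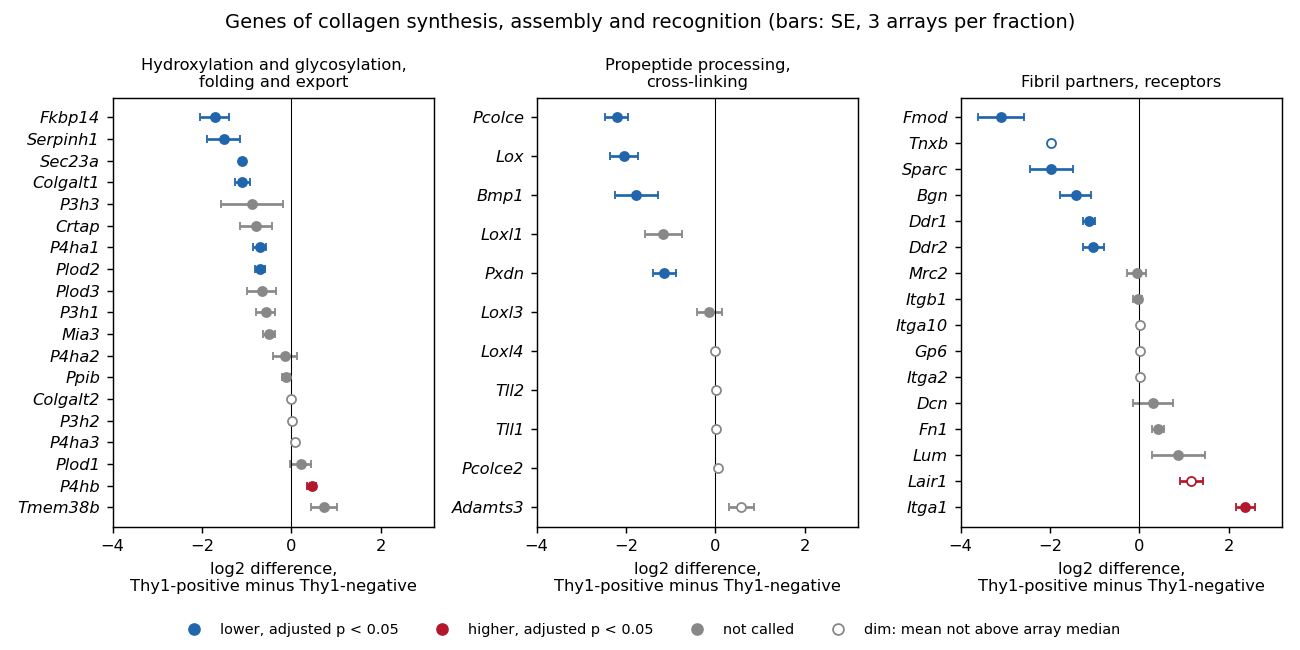
Differences of the 46 genes of collagen synthesis, assembly and recognition between fractions on the log2 scale (horizontal axis), with bars for the SE of limma over 3 arrays per fraction. Blue points are lower and red points higher in Thy1-positive cells (adjusted p under 0.05), and open circles mark genes whose mean was not above the array median. The 3 red points are P4hb, Lair1 and Itga1, against 16 blue ones.

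Promoter windows were available for 33 of the 42 collagen genes, as 36 windows of 250 bases before a start. A GC box was found in 21 of the 36 (58.3%, against 32.7% of 32851 windows of all genes), a CCAAT box in 13 (36.1%, against 33.8%) and a TATA box in 5 (13.9%, against 12.4%), each searched on both strands. By class, 4 of 8 basement membrane, 6 of 8 fibrillar and 11 of 20 other windows held a GC box, and 0, 2 and 3 held a TATA box. The windows printed above are examples of these, and some lack the bases inside the gene's own span that were searched. The genes Col4a3, Col1a1, Col2a1, Col5a2, Col9a3, Col12a1, Col14a1, Col22a1 and Col26a1 had no window. These letters are a description of the sequence and were not tied to the differences between fractions.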

How the data were processed

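RNA of 6 samples was hybridised to Affymetrix arrays. The values the authors deposited are linear intensities, 1 for each probe set on each array. The submitters' processing notes name GCRMA, without a version, while the labels describe Affymetrix software, and the sources used here do not say which of them made the values. After 64 controls were left out, 45037 probe sets were taken as log2(intensity + 1), with no filter. Of these, 34945 had 1 gene on the supplied platform table, 932 several and 9160 none. All 42 collagens matched RefSeq by Entrez identifier. The probe set with the highest mean was kept for each of 18193 genes and the fractions were compared with limma 3.58.1 (R 4.3.3; lmFit and eBayes, fraction as the single term, 2-sided, Benjamini-Hochberg adjustment, threshold 0.05), which was checked on simulated data. A value was at background level when its fraction mean was below the 25th percentile. The precision is limited by 3 arrays per fraction. Named genes were 12 collagens whatever their values, up to 4 called members per class and direction and up to 2 per pathway list and direction; further members were named after their values were seen. The members and lists were chosen with earlier results of these data known. Alternatives were other scalings, filters, pseudocount, variance model, probe set choice, a block and arrays left out.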

Additional observations from a re-analysis of the deposited data

How the results depend on the processing

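With quantile normalization, probe sets above the median alone, values floored at the 25th percentile, or an intensity trend with robust variance, 2 collagens were higher in Thy1-positive cells in place of 1, and 2 were without both arrays numbered 2. A pseudocount of 16 gave 0 higher collagens, and so did counting any probe set over all probe sets. Leaving out 1 array gave 0 to 2 higher and 5 to 11 lower collagens, and 1 to 5 higher and 4 to 17 lower pathway genes. Of all genes 1350 to 4273 were then higher and 1163 to 3008 lower. Median centring gave 9 higher and 11 lower collagens and 15 higher pathway genes, and housekeeping centring 16 lower collagens and 26 lower pathway genes. Calls over all genes shifted too, from 3368 higher and 2628 lower without centring. They became 10436 higher and 2659 lower with median centring, and 3180 higher and 7774 lower with housekeeping centring. Centring moved the median difference of all genes from 0.01 to 0.13 and -0.15, and many of the added genes were dim. The lower collagens numbered 14 without both arrays numbered 2, where all genes called lower numbered 3116. The replicate block, with the array numbers of the labels as blocks, left 0 higher and 5 lower collagens and 1 higher and 4 lower pathway genes. Of all genes it left 931 higher and 548 lower, in place of 3368 and 2628. Among the collagens Col4a1, Col4a2, Col4a5, Col18a1 and Col17a1 lost their calls. The labels do not state whether same-numbered arrays share a preparation, and their deviations gave correlations of -0.16, -0.17 and -0.04. Col5a1 was -0.051 with housekeeping centring, -0.088 without both arrays numbered 2 and between -0.074 and 0.30 with 1 array left out. Col5a2 was 0.0058 with the mean of its probe sets and between -0.46 and 0.073 with 1 array left out. Causes of these shifts were not tested. Col4a3, Col4a4, Col8a2, Col9a3 and Col11a1 kept their call in each of the 17 alternatives run on single genes. The median of the basement membrane chains was -1.68 with type IV alone. The 3 collagen chains at background level in both fractions had little room to show a decrease.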
